A study of Mus musculus with 14 samples.

Results

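The *Rhox* (reproductive homeobox) genes form a cluster of homeobox genes on the mouse X chromosome, and their levels in blastocysts were read from every gene probe of the array whose name begins with Rhox. There were 7 such probes among 41174 gene probes (7 of 27962 gene names), and they are *Rhox2*, *Rhox3*, *Rhox4e*, *Rhox5*, *Rhox6*, *Rhox9* and *Rhox11*. The RefSeq gene table of GRCm38.p6 lists 42 genes with such a symbol, 33 of them protein coding, so the array covers a part of the family. The cluster lies on chromosome X between 37213804 and 38306028 (GRCm38.p6), a span of 1.09 Mb.

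The samples were E4.0 mouse blastocysts grown in vitro in KSOM, with 4 clones made from cumulus cells by cell fusion (fusion clones), 4 made from cumulus cells by nuclear injection (injection clones), 3 male IVF-derived embryos and 3 female IVF-derived embryos. Cumulus cells are the somatic cells around the ovulated oocyte, and the clones are therefore female, which makes the female IVF-derived embryos their sex-matched control. In the study's methods the recipient oocytes came from BDF1 mice, the F1 of C57BL/6N and DBA/2, and the nuclear donors from heterozygous *Xist* knockout mice of a BDF1 background. They do not say separately whether these blastocysts had such donors, and the series text calls the IVF-derived controls matched in genotype. The extraction protocol speaks of single embryos only for dissected later tissues, so the number of blastocysts behind an array, and whether the replicates of a group were separate cultures, is not given. The p-values below measure the spread between these samples, which may be partly technical.

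*Rhox* genes encode homeodomain transcription factors of the testis, epididymis, ovary and placenta. *Rhox5*, also known as *Pem*, is the founding member and is made in the extra-embryonic lineages of the early embryo. *Rhox6* and *Rhox9*, once called *Psx1* and *Psx2*, are known from the placenta. In the embryo proper the cluster is known to be silenced by DNA methylation around implantation, a process that needs the methyltransferases Dnmt3a and Dnmt3b. *Rhox2*, *Rhox3* and *Rhox4* each exist in several copies that arose by repeated duplication of one stretch of the cluster.

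On 14 arrays, 57.4% to 65.2% of the spots were well above background, the mark that the scanner software gives to a spot clearly brighter than its surroundings. Levels are given as log2 of the intensity after quantile normalization of the 14 arrays, with a floor at 4. Levels of different probes are not comparable on a 1-color array, so each gene is compared with itself across the groups. Each group lay on a slide of its own, and all clones were scanned on another scanner and with another software version than all IVF-derived embryos, so that slide and group cannot be told apart. As a check of the labels, *Xist*, the RNA that coats the inactive X chromosome, stood at 4, 6.60 and 4.46 in the male embryos, at 13.50, 12.25 and 12.56 in the female embryos and between 11.80 and 15.47 in the 8 clones. The labelled tissue was checked by trophectoderm markers, of which 9 of 9 were well above background on all arrays. As in any whole embryo, fewer cells of a type and less RNA per cell cannot be told apart in these levels.

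The DNA upstream of the annotated start is shown for *Rhox5*, the member called different between groups, and for *Rhox4e*, which was called in no comparison. Both are RefSeq promoter sequences of GRCm38.p6, plus strand, 250 bases long and ending at the base before the annotated start, and the capitals mark CpG dinucleotides, the sites at which DNA methylation is placed. *Rhox5* is shown at chrX:37754358-37754607 and *Rhox4e* at chrX:37557162-37557411. The annotated *Rhox5* gene is 54271 bases long, against 4872 for *Rhox4e*. Whether transcripts of these blastocysts began at the annotated start was not measured, so the stretch shown may not be the promoter in use. The promoter table gave a sequence for 2 of the 4 members that were well above background on all arrays.
Rhox5: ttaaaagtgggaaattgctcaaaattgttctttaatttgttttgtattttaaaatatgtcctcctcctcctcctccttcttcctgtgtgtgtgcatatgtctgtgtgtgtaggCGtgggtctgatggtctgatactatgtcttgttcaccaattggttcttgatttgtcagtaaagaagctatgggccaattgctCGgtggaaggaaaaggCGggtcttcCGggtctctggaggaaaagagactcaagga
Rhox4e: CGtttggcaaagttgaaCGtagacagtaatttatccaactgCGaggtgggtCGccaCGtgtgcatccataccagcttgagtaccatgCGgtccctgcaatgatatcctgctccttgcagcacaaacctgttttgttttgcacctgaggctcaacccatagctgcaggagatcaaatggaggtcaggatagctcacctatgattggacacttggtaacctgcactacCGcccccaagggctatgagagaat
The *Rhox5* stretch holds 4 CpG dinucleotides, and 62.2% of 32851 promoters in the table hold at least as many. The *Rhox4e* stretch holds 7, and 46.3% of promoters hold at least as many. Both strands were searched for the TATA box (TATAAA), the GC box (GGGCGG), the E-box (CACGTG) and an E2F core (TTCCCGC), of which the GC box and the E2F core can share bases. *Rhox5* had no match to any of them. *Rhox4e* had 1 match to the GC box and 1 to the E-box, which occur in 32.7% and 6.02% of all promoters in the table, whereas the TATA box and the E2F core, absent from both, occur in 12.4% and 3.82%. The promoters of the 6 other *Rhox4* copies share 55.0% to 87.8% of the 30-base words of the *Rhox4e* stretch.

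All 7 probes were well above background on at least 1 array. *Rhox5*, *Rhox6*, *Rhox9* and *Rhox4e* were well above background on 14 of 14 arrays, *Rhox2* on 9, *Rhox3* on 4 and *Rhox11* on 1. A comparison tested the probes that any array of its groups showed well above background, and these held 6 *Rhox* probes in each comparison that involved clones and 7 in that of male and female embryos.

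*Rhox5* (chromosome X, 37754608 to 37808878) was higher in the clones of both methods than in female IVF-derived embryos, and lower in male than in female embryos. Its level was 17.19, 16.81, 17.34 and 17.72 in fusion clones and 17.13, 17.73, 17.83 and 16.34 in injection clones. It was 15.08, 14.91 and 15.05 in female embryos and 11.20, 11.66 and 11.20 in male embryos. The lowest clone was 1.26 above the highest female embryo on the log2 scale. The lowest female embryo was 3.26 above the highest male embryo. The share of all probes whose groups separate in this way was not counted. No spot of *Rhox5* was saturated.

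**Figure D1:**
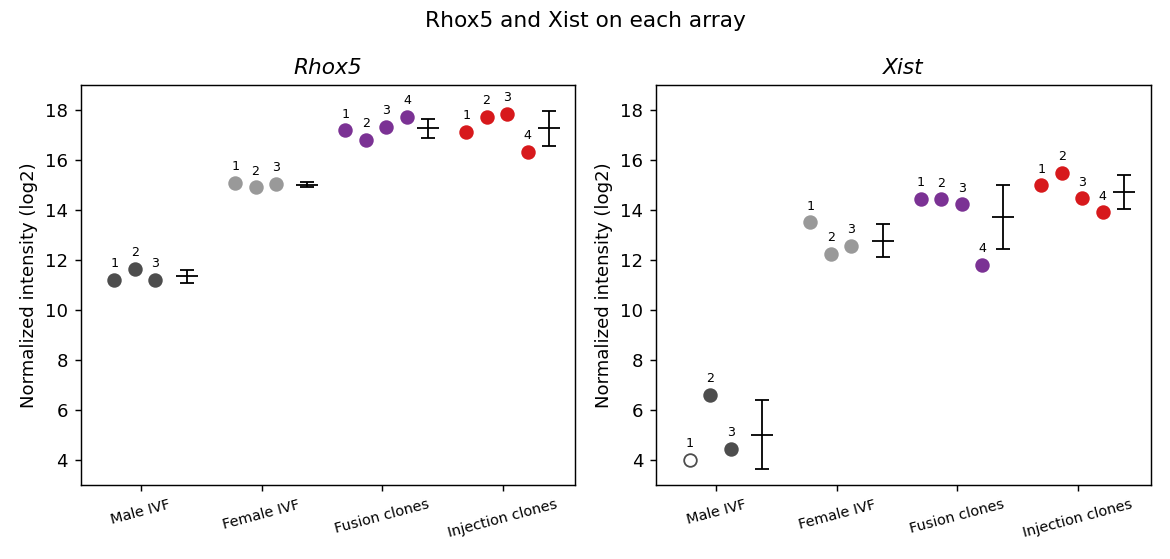
Normalized intensity (log2) of *Rhox5* (left) and *Xist* (right) on each of the 14 arrays by group, with the replicate number over each point, open points not well above background, and the mean and SD at the side. *Rhox5* lies at 16.34 to 17.83 in the clones, 14.91 to 15.08 in female and 11.20 to 11.66 in male embryos, and *Xist* of fusion clone 4 (11.80) lies below the other fusion clones.

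Fusion clones had a mean *Rhox5* level of 17.26 ± 0.37 (SD, n = 4) against 15.01 ± 0.09 (n = 3) in female embryos, a difference of 2.25 (SE 0.24, 95% interval 1.67 to 2.83) or 4.75-fold. In limma's moderated test the adjusted p was 0.00593 by Benjamini-Hochberg over 32370 probes. *Rhox5* was the 1 of 6 *Rhox* probes called higher, where 4.35% of all probes tested were called higher in fusion clones, and 0 of 6 were called lower, against 5.02%. Injection clones had a mean of 17.26 ± 0.69 (n = 4), a difference of 2.24 (SE 0.38, 95% interval 1.32 to 3.17) or 4.73-fold, with a limma adjusted p of 0.0412 over 32801 probes. Again 1 of 6 *Rhox* probes was called higher, against 1.52% of all probes, and 0 of 6 lower, against 2.09%. Both comparisons share the same 3 female embryos. Leaving out any 1 array kept the call in fusion clones, whereas in injection clones 6 of 7 such omissions (each female embryo, and injection clones 1, 2 and 3) ended it, with differences of 2.05 to 2.29 and adjusted p from 0.0810 to 0.0986. Without injection clone 4, the lowest of its group, the difference was 2.55 with an adjusted p of 0.0162.

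Between the methods of cloning, *Rhox5* differed by 0.01 (fusion minus injection, SE 0.37, 95% interval -0.86 to 0.87), with a limma adjusted p of 1.0. The interval runs from a 0.552-fold to a 1.83-fold level in fusion over injection clones. None of 6 *Rhox* probes was called between the methods (0 of 6), as was 0% of 32187 probes on the array.

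Male embryos had a mean *Rhox5* level of 11.35 ± 0.26 (n = 3), a difference from female embryos of -3.66 (SE 0.24, 95% interval -4.26 to -3.07), which is 12.7-fold lower. In the fit that leaves out the pairing of same-numbered samples, the limma adjusted p was 0.0233 over 32021 probes. There *Rhox5* was the 1 of 7 *Rhox* probes called lower, where 0.0312% of all probes were called lower in male embryos. With 0 of 7 called higher (0.0281% of all probes), this made 1 of 7 in either direction (0.0593%). With the replicate number as a block, which uses that pairing, the difference was also -3.66 (SE 0.29) and the adjusted p was 0.395. The call was lost, as was that of every other probe on the array. Leaving out any 1 of the 6 arrays ended the call too, with differences of -3.81 to -3.58 and adjusted p from 0.0640 to 0.137.

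Female embryos carry a pair of X chromosomes and male embryos a single one, so *Rhox5* was set beside the other X-linked probes. Among 907 other X-linked probes tested, the median difference of male from female embryos was -0.28, against -0.04 for autosomal probes. Of these, 11 lay below *Rhox5*, and 2 were called lower. In fusion clones against female embryos the median over 921 other X-linked probes was -0.21, against -0.14 for autosomal probes, and 50 lay above *Rhox5*. In injection clones the median over 933 was -0.19, against -0.08, and 44 lay above it. The rise of *Rhox5* in clones thus stood at the upper end of a set whose median was below 0.

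*Rhox6* (37827055 to 37829857) was at its lowest in the male embryos, and it spread widely among clones. It stood at 9.71, 9.57 and 8.98 in female embryos and at 4.28, 6.57 and 6.69 in male embryos. It was 9.21, 7.90, 9.18 and 14.87 in fusion clones and 10.27, 7.48, 8.86 and 12.23 in injection clones. The lowest clone was 0.80 above the highest male embryo on the log2 scale, a gap for which no test was run. The share of all probes that separate clones from male embryos was not counted. These groups differ in sex, slide, scanner and software at once. The difference of male from female embryos was -3.57 (SE 0.71, 95% interval -5.34 to -1.81), which is 11.9-fold lower, with a limma adjusted p of 0.373. It was -2.34 with normexp background correction (adjusted p 0.185) and -2.79 without male embryo 1 (adjusted p 0.128), and the other omissions of 1 array gave -3.99 to -3.43. *Rhox6* passed the threshold named in the study's methods, an unadjusted 5% level and at least a 2-fold difference, as did *Rhox5*, which makes 2 of 7 *Rhox* probes, where 5.83% of all probes passed.

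*Rhox6* was not called in clones against female embryos. The difference was 0.87 in fusion clones (95% interval -2.99 to 4.73, limma adjusted p 0.738) and 0.29 in injection clones (95% interval -2.36 to 2.94, adjusted p 0.891). Each clone group held an array far above the rest. Fusion clone 4 was 5.66 above the next fusion clone on the log2 scale, which is 50.5-fold, and injection clone 4 was 1.96 above the next injection clone, which is 3.88-fold. Without fusion clone 4 the difference in fusion clones was -0.65, and without injection clone 4 that in injection clones was -0.55, so that the sign in each rested on that array.

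*Rhox9* (37899097 to 37901770) followed *Rhox6* across the arrays. It was 6.35, 7.33, 6.74 and 14.38 in fusion clones, 7.68, 4.97, 7.75 and 9.996 in injection clones, 7.73, 9.78 and 6.60 in female embryos and 5.18, 7.81 and 6.998 in male embryos. Fusion clone 4 was 7.06 above the next fusion clone on the log2 scale, or 133-fold, and injection clone 4 was again the highest of its group, while all other arrays overlapped between the groups. The differences were 0.66 for fusion clones against female embryos (95% interval -4.30 to 5.63), -0.44 for injection clones (95% interval -3.59 to 2.71) and -1.37 for male embryos (95% interval -3.94 to 1.20). Their limma adjusted p were 0.848, 0.856 and 0.725. Without fusion clone 4 the difference in fusion clones was -1.23.

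**Figure D2:**
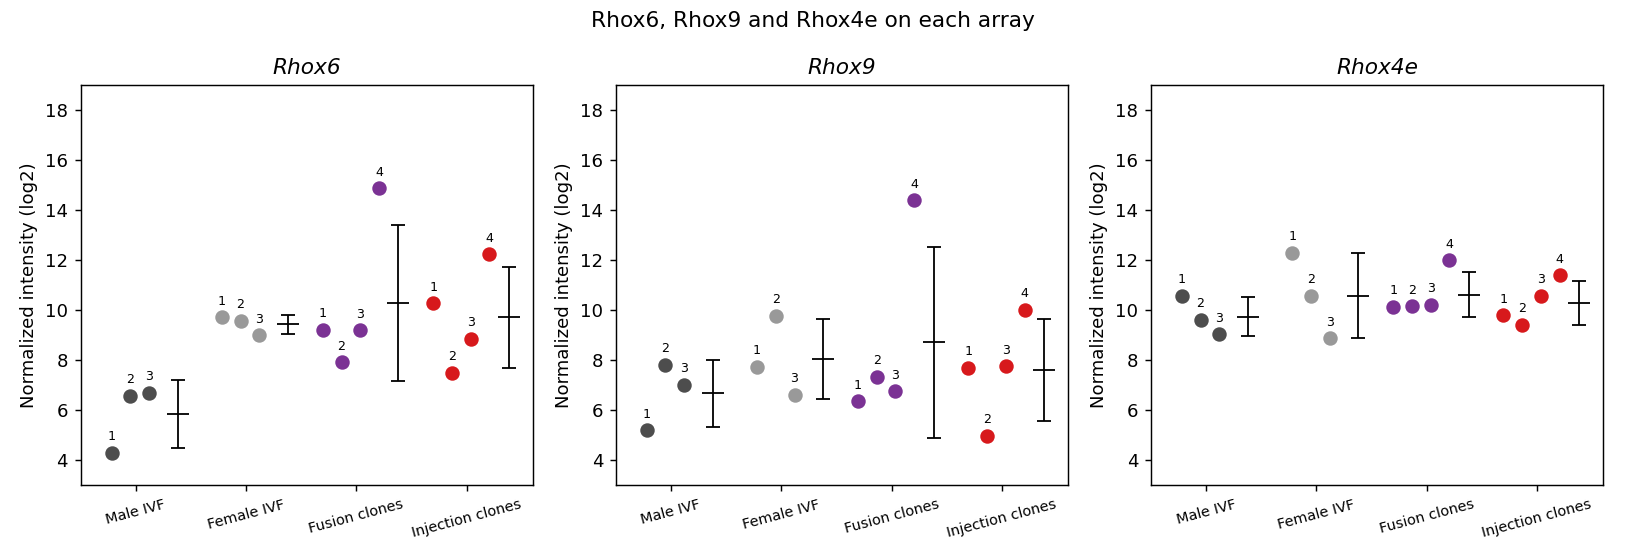
Normalized intensity (log2) of *Rhox6*, *Rhox9* and *Rhox4e* on each array by group, with the replicate number over each point and the mean and SD at the side. Fusion clone 4 and injection clone 4 are the highest of their groups in all 3 panels, and *Rhox6* is below 7 only in the male embryos.

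Over the 14 arrays, deviations from the group means correlated at r = 0.921 between *Rhox6* and *Rhox9*, and at 0.644 over the 12 arrays left without the clones numbered 4. Deviations of *Rhox5* correlated with those of *Rhox6* at -0.05, of *Rhox9* at 0.01 and of *Rhox4e* at -0.08. The values come from the same arrays and share their normalization, so the correlations are a description of these arrays. The clones numbered 4 differed from the rest in other ways. Fusion clone 4 had the smallest share of bright spots, those well above background (57.4%), and the lowest *Xist* level of the clones (11.80, the other fusion clones 14.22 to 14.45). Injection clone 4 had the highest share (65.2%) and the lowest *Xist* level of the injection clones (13.91, the others 14.47 to 15.47). The part of these differences in the levels of *Rhox6* and *Rhox9* was not tested.

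*Rhox4e* (37557412 to 37562283) did not separate the groups. Its probe carries accessions of 4 genes, *Rhox4a*, *Rhox4b*, *Rhox4e* and *Rhox4g*, so that the level may be that of any of these copies. It was 10.13, 10.15, 10.21 and 11.98 in fusion clones, 9.79, 9.40, 10.56 and 11.39 in injection clones, 12.28, 10.56 and 8.86 in female embryos and 10.56, 9.60 and 9.03 in male embryos. All groups overlapped. The differences from female embryos were 0.05 in fusion clones (95% interval -2.03 to 2.12), -0.29 in injection clones (95% interval -2.42 to 1.85) and -0.84 in male embryos (95% interval -3.15 to 1.47), with limma adjusted p of 0.977, 0.862 and 0.742. Between fusion and injection clones, *Rhox6* differed by 0.58 (95% interval -3.43 to 4.60), *Rhox9* by 1.101 (95% interval -3.58 to 5.78) and *Rhox4e* by 0.34 (95% interval -1.04 to 1.71), none of them called.

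The remaining members were dim. *Rhox2*, which the gene table matches to *Rhox2a* (37244992 to 37249690), was 5.98, 6.28, 4 and 5.25 in fusion clones, 4, 6.61, 7.34 and 7.30 in injection clones, 7.18, 7.14 and 4 in female embryos and 8.06, 4 and 4 in male embryos. Every group had at least 1 array at the floor, and no comparison was called, with adjusted p from 0.623 to 0.933 in limma's test. *Rhox3*, matched to *Rhox3a* and *Rhox3f* (*Rhox3a* at 37249919 to 37258978), was well above background on 3 of 4 injection clones (6.27, 6.14 and 5.72), on 1 of 3 female embryos (6.36), and on no fusion clone or male embryo. With the floor of 16 (4 on the log2 scale), its mean in injection clones was 2.70-fold that in fusion clones (limma adjusted p 0.764). This is no lower limit, since injection clone 4 was itself at the floor. The log2 difference of fusion from injection clones was -1.44, against -0.60 with normexp background correction and -0.78 with a floor of 32. It was -2.64 with a floor of 1 and -2.17 in the log2 values as deposited, none of them called. In female embryos the mean was 1.61-fold that in fusion clones (adjusted p 0.489) and 1.73-fold that in male embryos (adjusted p 0.725). Each rests on 1 of 3 female arrays with the others at the floor, so neither is a lower limit. Over the alternatives, the log2 difference from female embryos ran from -1.31 to -0.21 in fusion clones, none called. In male embryos it ran from -0.79 to -0.18, none called. *Rhox3* was the 1 of 6 *Rhox* probes past the unadjusted 5% level with a 2-fold difference between the methods of cloning, where 2.43% of all probes were. *Rhox11* (38076598 to 38085139) was well above background on 1 male embryo (4.96) and on no other array. With the floor of 16, its mean in male embryos was 1.34-fold that in female embryos, with a limma adjusted p of 0.725. The log2 difference of *Rhox11* was 0.42 and ran from 0 with a floor of 32 to 3.23 with a floor of 1 and 3.70 in the deposited log2 values, none of them called. For these folds, an array of the dimmer group counted at its own value or, if greater, at a limit. That limit was the lowest level found there among probes marked well above background. Each fold given below as at least a value used the same rule.

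**Figure D3:**
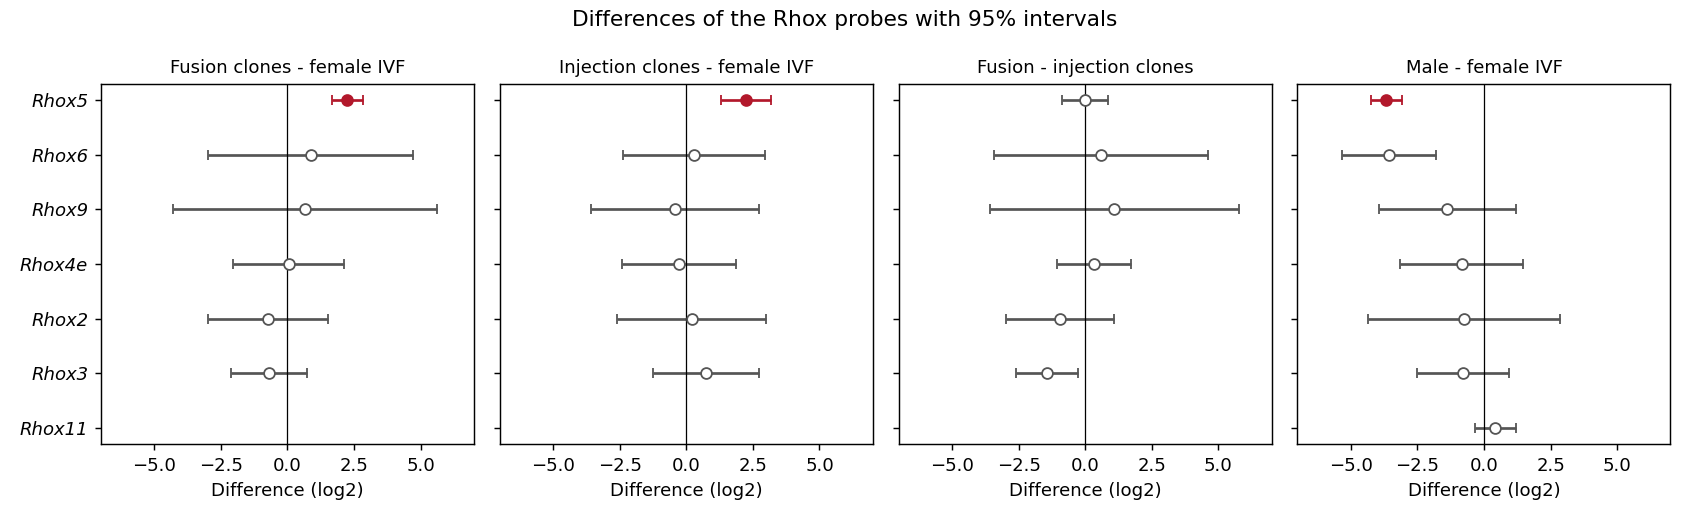
Differences in log2 intensity of the *Rhox* probes in the 4 comparisons, with 95% intervals from limma without the replicate block. Filled red points have an adjusted p below 0.05, which holds for *Rhox5* in 3 comparisons (2.25, 2.24 and -3.66), while all other intervals apart from *Rhox6* in male embryos and *Rhox3* between the methods span 0.

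The genes on either side of the cluster were taken as its neighbourhood. Of 21 flanking genes tested in fusion clones, 1 was higher and none lower than in female embryos, a share close to the 4.35% of all probes called higher. The median difference was 0.25 against -0.12 over all probes. The gene was *Rnf113a1*, a ring finger and zinc finger gene, at 12.10 ± 0.31 (n = 4) against 10.78 ± 0.49 (n = 3), a difference of 1.32 (SE 0.30) with a limma adjusted p of 0.0427. In injection clones 0 of 20 were called (2 at an unadjusted p below 0.05), with a median of -0.05 against -0.08. In male embryos 0 of 20 were called (3 at an unadjusted p below 0.05), with a median of -0.46 against -0.03, and 18 of the 20 differences were negative. No flanking gene was called between the methods (0 of 21, and 0 at an unadjusted p below 0.05). The share of all probes at an unadjusted p below 0.05 alone was not counted, here or for the lists below. With a 2-fold difference added, it was 17.3% in fusion clones, 14.1% in injection clones, 5.83% in male embryos and 2.43% between the methods.

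**Figure D4:**
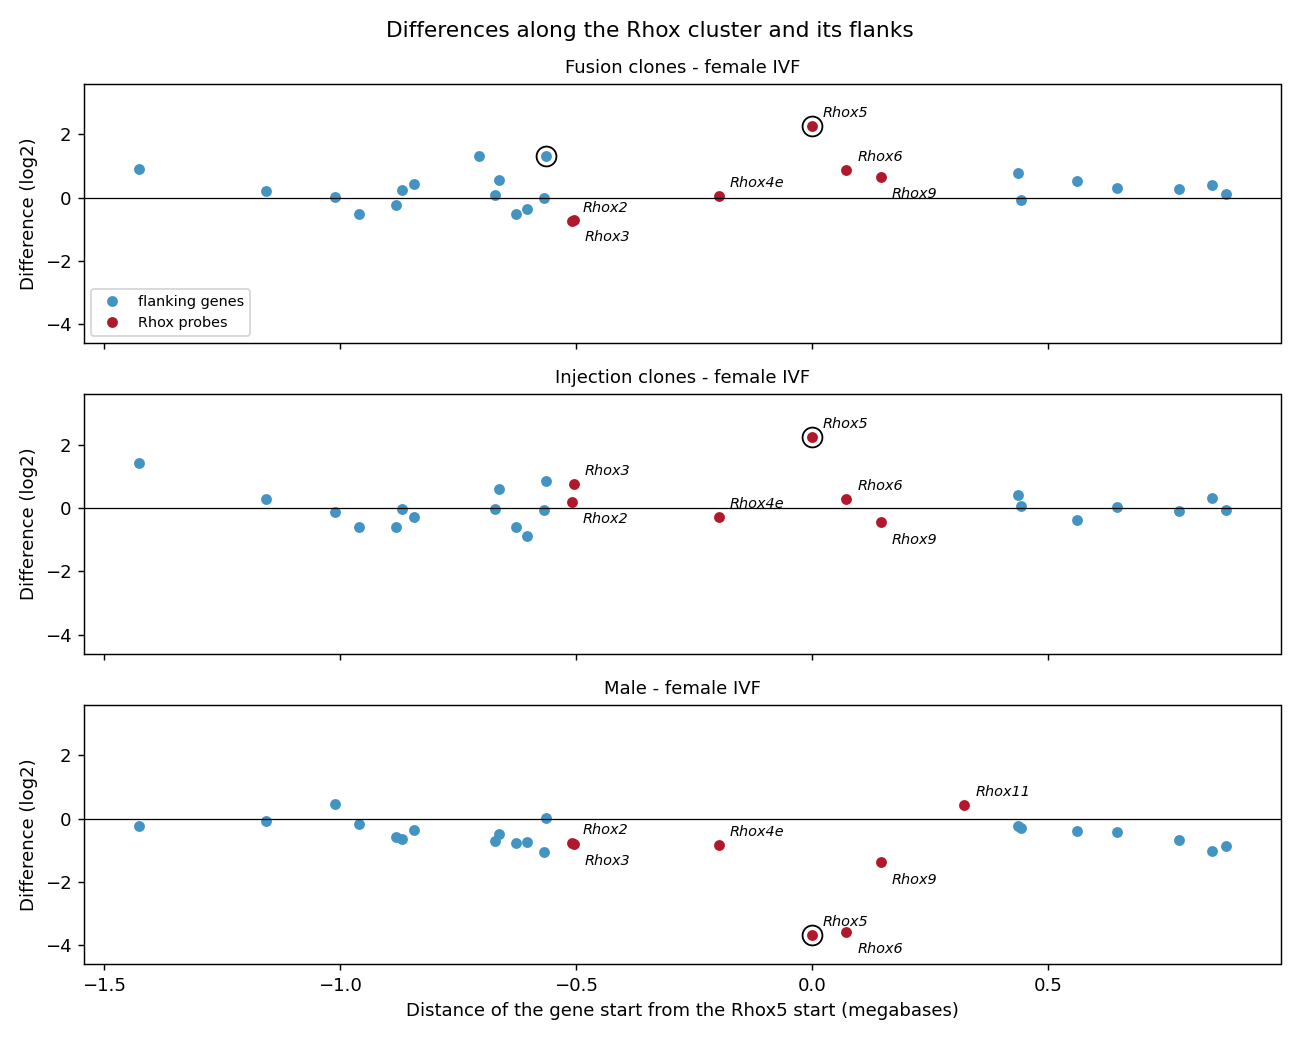
Differences in log2 intensity of *Rhox* probes (red) and flanking genes (blue) by the distance of their start from that of *Rhox5* in megabases, for fusion clones, injection clones and male embryos, each against female embryos. Rings mark an adjusted p below 0.05 in the fit without the replicate block, which are *Rhox5* in each panel and *Rnf113a1* in fusion clones.

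Genes known to act on the silencing of *Rhox* and other germline genes, for or against it, were examined next. Of 17 genes tested in fusion clones against female embryos, 2 were higher and 3 lower, where 9.37% of all probes were called in either direction. The 5 genes hold DNA methyltransferases, a DNA demethylase and a histone methyltransferase. Levels of *Tet2* and *Dnmt3a* were higher, and those of *Dnmt3b*, *Setdb1* and *Dnmt1* were lower. *Tet2*, which oxidizes methylated cytosine, was 12.76 ± 0.27 in fusion clones (n = 4) against 9.09 ± 0.95 in female embryos (n = 3), and *Dnmt3a*, a de novo DNA methyltransferase, was 13.01 ± 0.52 against 10.60 ± 0.74. *Dnmt3b*, its paralog, was 13.73 ± 0.48 against 15.88 ± 0.16, and *Setdb1*, a histone H3 lysine methyltransferase, was 9.95 ± 0.40 against 11.95 ± 0.18. *Dnmt1*, the maintenance methyltransferase, fell by 1.40 on the log2 scale. The limma adjusted p of these genes ran from 0.00867 for *Tet2* to 0.0394 for *Dnmt1*. In injection clones 3 of 17 were lower and 0 higher, where 3.61% of all probes were called. These were *Dnmt3b* (-2.03), *Setdb1* (-1.70) and *Dnmt1* (-1.48), with limma adjusted p of 0.0178, 0.0371 and 0.0409. None was called in male against female embryos (0 of 17, and 0 at an unadjusted p below 0.05) or between the methods of cloning (0 of 17, and 1 at an unadjusted p below 0.05).

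Other germline genes that DNA methylation is known to silence moved in both directions. Of 14 tested in fusion clones, 3 were higher and 4 lower than in female embryos, where 4.35% of all probes were called higher and 5.02% lower. *Asz1*, needed for piRNA control of transposons, was at the floor in all 8 clones and at 10.85 ± 0.35 in female embryos (n = 3), at least 113-fold lower in fusion and 114-fold lower in injection clones. *Tdrd1*, of the same pathway, was not well above background on any female embryo and at 8.64 ± 1.58 in fusion clones (n = 4), at least 24.9-fold higher. *Mael* (-4.27) and *Sohlh2* (-3.81) were lower in fusion clones, with limma adjusted p of 0.0256 and 0.00722. In injection clones 1 of 14 was higher, *Tdrd1* (at least 24.1-fold), and 1 lower, *Asz1*, where 1.52% and 2.09% of all probes were. Among 14 other homeobox genes tested in fusion clones, 2 were lower and none higher, against the same 5.02% and 4.35%. *Meis2*, a TALE-class factor, was at the floor in all fusion clones and at least 66.0-fold lower than in female embryos, and *Hmbox1* fell by 1.16 on the log2 scale with a limma adjusted p of 0.0338. In injection clones 0 of 12 were called (6 at an unadjusted p below 0.05).

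Markers of the lineages of the blastocyst were set beside the rise of *Rhox5*. Of 15 trophoblast genes, 1 was called lower in each clone group, against 5.02% of all probes in fusion and 2.09% in injection clones. *Elf5*, a trophoblast stem cell factor, differed by -2.96 in fusion clones (limma adjusted p 0.0154) and by -3.65 in injection clones (adjusted p 0.0659). *Plac1*, a placental gene of the X chromosome, differed by -3.13 in injection clones (adjusted p 0.0417) and by -1.93 in fusion clones (adjusted p 0.391). Between the methods 0 of 15 were called, and 0 at an unadjusted p below 0.05. The summed level of the 9 trophectoderm markers rests on *Krt8* and *Krt18*, the brightest of them. The sum was 19.51 to 19.87 in fusion clones, 19.36 to 19.81 in injection clones and 19.80 to 20.01 in female embryos. Of the 9 primitive endoderm markers, 2 were lower in fusion clones, *Foxa2* (at least 142-fold) and *Sox7* (-6.39, limma adjusted p 0.0174). In injection clones 2 were lower, *Foxa2* (at least 144-fold) and *Lama1* (-4.43, adjusted p 0.0442). Both counts are 2 of 9 called lower, against 5.02% and 2.09% of all probes. The median difference of the 9 was -2.54 in fusion clones and -3.57 in injection clones, against -0.12 and -0.08 over all probes. In fusion clones 8 were negative and 4 had an unadjusted p below 0.05, in injection clones 9 and 6. Of all probes, 17.3% and 14.1% were at that level with a 2-fold difference added. The share at that level alone was not counted. The summed level of the 9, which rests on the brightest of them, was 17.42 to 17.95 in fusion clones, 17.18 to 17.66 in injection clones and 17.87 to 18.26 in female embryos. Of the 7 epiblast markers none was called in fusion clones (0 called, and 2 at an unadjusted p below 0.05), and *Zfp42* was 0.93 higher in injection clones (adjusted p 0.0447), 1 of 7 against 1.52% of all probes. The summed level of 7 epiblast markers, of which *Zfp42* is the brightest, was 16.62 to 16.93, 16.73 to 17.20 and 16.42 to 16.72 in the same order. The part of these lineage differences in the level of *Rhox5* was not tested. Of 12 cumulus cell markers none was called higher or lower, with 10 tested in fusion and 9 in injection clones (0 called, and 2 and 4 at an unadjusted p below 0.05). *Has2*, *Ptx3* and *Tnfaip6*, genes of the expanding cumulus, were not well above background on any clone. Other markers were, and *Amhr2*, *Foxl2* and *Nr5a1*, named after their values were seen, were well above background on all 8 clones and all 3 female embryos. *Amhr2*, a receptor of anti-Müllerian hormone, was 10.38 ± 0.65 in fusion clones (n = 4), 10.80 ± 0.34 in injection clones (n = 4) and 9.03 ± 0.92 in female embryos (n = 3), with limma adjusted p of 0.163 and 0.0841. *Foxl2* and *Nr5a1* had negative differences from female embryos in both clone groups. In clones the summed level of the list rests on *Amhr2*, its brightest gene. The sum was 10.16 to 11.45 in fusion clones, 10.76 to 11.37 in injection clones and 10.18 to 10.28 in female embryos. The median difference of the genes tested was -0.81 in fusion clones, with 7 of 10 negative. In injection clones it was -0.66, with 7 of 9 negative.

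Genes whose deviations from the group means ran most like those of a *Rhox* gene were sought among 10677 genes well above background on all 14 arrays. For *Rhox5* these were *Ly6a* (r = 0.884), *Ly6c1* (0.883) and *AU020206* (0.873), of which *Ly6a* and *Ly6c1* belong to one family of cell surface proteins. For *Rhox6* they were *Ccdc112* (0.879), *1700094D03Rik* (0.863) and *Racgap1* (0.836), and for *Rhox9* *Rrm1* (0.870), *Pgrmc1* (0.863) and *Nusap1* (0.844). *Pgrmc1* is itself one of the flanking genes of the cluster, while *Racgap1*, *Rrm1* and *Nusap1* are known from cytokinesis, nucleotide synthesis and the spindle. For *Rhox4e* they were *Nrxn2* (0.906), *Exosc10* (0.897) and *Alox12b* (0.892). These correlations share the 14 arrays and their normalization, and they are given as a description with no test. Fusion clone 4 stood 5.66 above the next fusion clone for *Rhox6* and 7.06 for *Rhox9* on the log2 scale. The correlations of these 2 genes may therefore rest largely on that array, and they were not recomputed without it.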

How the data were processed

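Total RNA of 14 blastocyst samples had been extracted with TRIzol, amplified in a linear way and hybridized with Cy3 to Agilent 4x44K whole mouse genome arrays. The authors deposited the Feature Extraction intensity of each spot, background-subtracted within an array and not normalized between arrays (version 10.5.1.1 for clones and 9.5.3.1 for IVF-derived embryos in the file headers, 10.5.1 in the submitters' processing notes). The deposited log2 table of the same arrays, shifted per array and centred per probe, served as an alternative, with 0 value columns left without a sample. Other columns used were the gene names and spot marks deposited per the file headers.

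The processed intensities of gene spots were quantile-normalized over 14 arrays after setting outlier spots (101 to 338 per array) to missing, raised to 16 where lower, taken to log2 and averaged for each probe. The 1639 control spots were left out. IVF arrays had 6790 to 9981 spots below 0 and clone arrays 0. Pairs of groups were compared with limma 3.58.1 (lmFit and eBayes, R 4.3.3) with Benjamini-Hochberg adjustment at 0.05 over all probes tested. The study's methods name a quintile normalization, moderated tests, an unadjusted 5% level and a 2-fold filter. The test was also run on simulated arrays with independent normal values, an equal spread in both groups and no floor. This does not cover values at the floor, unequal spreads or differences between slides. Genes were named and placed by a RefSeq table of GRCm38.p6, which matched 32719 of 41174 probes (79.5%). Where several probes name a gene, the brightest stands for it.

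All *Rhox* members are described. Of each fixed gene list, up to 4 genes with an adjusted p below 0.05 and the largest change are named, and further called genes are only counted, apart from *Dnmt1* in fusion clones. Members and lists were chosen with earlier results of these data known. Deviations of same-numbered male and female samples from their group means correlated at 0.108, 0.128 and 0.109. Among the female samples, each male sample correlated best with that of its own number, and the reverse was not checked. The numbers were therefore taken to pair these samples, from the data and not from a stated pairing. Fusion clones 1 and 2 also correlated best with the female embryo of their own number, at 0.056 and 0.026. Fusion clone 3 correlated best with injection clone 3 among the injection clones, at 0.105, close to the values of male and female samples. The main fits left the pairing out, and only the fit with the replicate block used it. With that block no call in male embryos remained. Alternatives changed the floor, normalization, background correction, filter, variance model, samples in the fit, replicate block and each array left out. The number of arrays limits the precision.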

Additional observations from a re-analysis of the deposited data

Results flagged for a closer look

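Among 14 sets of 4 clones tested (the *Rhox* probes not at the floor throughout, and *Xist*), the highest or lowest array stood apart from the other 3 by more than Dixon's 95% limit, a share of the whole range, in 4. Chance alone gives this in about 5% of sets that hold no values at the floor. The sets are not independent, since they come from the same arrays. In all 4 the array was fusion clone 4. Its level of *Rhox9* was 14.38, with 0.878 of the range between it and the next array. Its level of *Rhox4e* was 11.98 (0.959 of the range). Its level of *Xist* was 11.80, below the other fusion clones (0.914 of the range). Its level of *Rhox3* was 4.37 while the other 3 fusion clones were at the floor, and it was not well above background there. With those 3 at the floor, the share of the range was fixed at 1 in advance. This set therefore says nothing about the array. *Rhox6* of the same array, at 14.87, reached 0.812 of the range and stayed under the limit.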

How the results depend on the processing

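The *Rhox5* differences and the counts of *Rhox* probes called kept their direction and call in 98 recomputed values. Of the rest, 17 counts moved, 17 *Rhox5* differences lost their call, and 4 between the methods of cloning changed sign. The differences of the other members, none called in the main fit, kept their direction in 324 values and did not in 26. *Rhox5* in fusion clones kept its call under every setting but the replicate block (2.10, adjusted p 0.111, 0 *Rhox* probes called), and without 1 array it was 2.10 to 2.40. In injection clones the call was lost with a floor of 1 (2.24, adjusted p 0.0561), with no filter (2.24, adjusted p 0.0640) and with the replicate block (2.55, adjusted p 0.159), each with 0 *Rhox* probes called, and without 1 array the difference was 2.05 to 2.55 with 0 to 1 probes called. In male against female embryos it was lost with the replicate block (-3.66, adjusted p 0.395, 0 called) and without any 1 array (-3.81 to -3.58, 0 called). Between the methods of cloning *Rhox5* was -0.30 to 0.20 without 1 array. The clone comparisons share only replicate numbers, with correlations of -0.06 to 0.06 against the female embryos and -0.05 to 0.11 between the methods, and clones numbered 4 have no female partner, so the block's estimate there rests on numbers 1 to 3. The cause of these losses was not tested.

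With the replicate block, fusion clones differed from female embryos by -1.23 for *Rhox9*, -0.65 for *Rhox6* and -0.40 for *Rhox4e*, and injection clones by -0.55 for *Rhox6* and -0.13 for *Rhox2*. *Rhox4e* in fusion clones was -0.13 with normexp background correction, *Rhox2* in injection clones was -0.49 with a floor of 1, and *Rhox11* in male embryos was 0 with a floor of 32. Without 1 array, fusion clones ranged over -1.23 to 1.54 for *Rhox9*, -0.65 to 1.67 for *Rhox6* and -0.80 to 0.91 for *Rhox4e* against female embryos. Injection clones ranged over -1.24 to 0.44 for *Rhox9*, -0.55 to 1.03 for *Rhox6*, -0.85 to 0.97 for *Rhox2* and -1.14 to 0.57 for *Rhox4e*. Fusion against injection clones ranged over -0.79 to 1.90 for *Rhox9*, -0.94 to 1.42 for *Rhox6* and -0.12 to 0.70 for *Rhox4e*, and *Rhox4e* in male embryos over -1.69 to 0.018.

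Over all probes, 1409 were higher and 1624 lower in fusion clones, against 1569 and 950 in the deposited log2 values, where the median of all probes moved from -0.12 to 0.04. For injection clones it was 497 and 687, against 392 and 225, with the median moving from -0.08 to 0.07. Calls in injection clones numbered 1184, against 599 with a floor of 1, 774 with no filter and 3097 with all groups in one fit. Without 1 array they numbered 162 to 1043, with a change of over 1.5 times for all but injection clone 4 and female embryo 2. In male embryos 19 were called, against 151 in the deposited values, 206 with all groups in one fit, 103 with a floor of 1, 40 and 34 with the other filters, 7 with normexp and 3 with a variance trend, and 1 to 15 without 1 array (15 without male embryo 1, 4 without female embryo 1 and 1 without each of the others). Between the methods 781 probes passed the unadjusted threshold, against 1279 in the deposited values, 1313 with a floor of 1 and 464 with normexp, and up to 11 were called after adjustment. With the replicate block 0 probes were called in each comparison. In fusion clones 3033 were called, and 1114 to 2722 without 1 array, with a change of over 1.5 times for every array but female embryo 2. In male embryos 1868 probes passed the unadjusted threshold, and 1228 to 2900 over the alternatives to the floor. Signals near the floor limit *Rhox2*, *Rhox3* and *Rhox11*.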
